A study of Arabidopsis thaliana with 10 samples.

Results

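The levels of 10 genes that govern the balance between seed dormancy and germination were followed across 5 genotypes of Arabidopsis thaliana seedlings. The genes were taken by locus identifier from the 27086 loci measured in each library. They are 2 dormancy or germination regulators, DOG1 and SOM, 3 genes of abscisic acid (ABA) synthesis, NCED3, NCED6 and NCED9, 3 genes of ABA breakdown, CYP707A1, CYP707A2 and CYP707A3, and 2 genes of gibberellin (GA) synthesis, GA3OX1 and GA3OX2. RNA came from whole seedlings of ecotype Col-0 at 10 days after germination (DAG), with 2 libraries per genotype. The genotypes were a triple mutant labelled atbmi1abc, a double mutant labelled atbmi1ab_strong, the single mutants labelled atbmi1b and atbmi1a, and the wild type (WT). The labels name no allele, insertion line or treatment, and give no sign that replicate libraries came from different plants, so the p-values reflect the spread between libraries, which may be technical. The mutated genes encode RING-finger subunits of the Polycomb complex PRC1, which helps to keep developmental genes silent.

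ABA holds a mature seed dormant and GA promotes its germination, and the ratio of the hormones matters more than either level alone. NCED enzymes cleave carotenoid precursors and carry out the committed step of ABA synthesis, whereas CYP707A enzymes hydroxylate ABA and so start its breakdown. GA3OX enzymes carry out the last step to the active gibberellins. In Arabidopsis seeds DOG1 sets the depth of dormancy, and SOM, a CCCH zinc finger protein, restrains germination in the dark by favouring ABA over GA. DOG1 and NCED9 are best known from seeds and NCED3 from drought, while GA3OX1 also serves the growth of seedlings.

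Expression was deposited as FPKM, a level per gene length and library size, and the 10 libraries summed to between 792416 and 990295 FPKM. As a check of the labels, AtBMI1B averaged 0.145 ± 0.0527 FPKM in atbmi1b, 1.80 ± 0.147 in atbmi1ab_strong and 3.77 ± 0.176 in atbmi1abc, against 6.10 ± 0.339 in WT (SD, n = 2 each). AtBMI1A was not lower in the libraries whose labels name it. It averaged 30.1 ± 4.72 FPKM in the libraries labelled atbmi1a, 8.54 ± 0.919 in those labelled atbmi1ab_strong and 12.0 ± 2.42 in those labelled atbmi1abc, against 6.50 ± 0.584 in WT (SD, n = 2 each). AtBMI1C averaged 3.69 ± 0.932 FPKM in atbmi1abc and 3.32 ± 0.141 in atbmi1ab_strong, against 0.0906 ± 0.0636 in WT (SD, n = 2 each). Its level thus does not tell the triple from the double mutant. The genotypes labelled atbmi1a, atbmi1ab_strong and atbmi1abc are therefore called by their labels only.

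Summed levels of cell type markers differed between genotypes. The 5 embryo storage markers summed to 76710 and 96338 FPKM in atbmi1abc and to 51381 and 60864 in atbmi1ab_strong, against 53.05 and 46.81 in WT. CRA1 and CRU3, which encode 12S storage globulins, were listed at 0 in both atbmi1ab_strong libraries. An exact 0 can be a failed estimate, and the atbmi1ab_strong sums lack these markers, so they are not like for like with the atbmi1abc sums. The sum was 58.18 and 33.75 FPKM in atbmi1b, and 2158 and 36.07 in atbmi1a, so atbmi1a replicate 1 stood apart from its partner. The 5 leaf photosynthesis markers summed to 1229 and 1281 FPKM in atbmi1abc and to 948 and 1053 in atbmi1ab_strong, against 34708 and 39270 in WT. The 6 root markers summed to 186 and 210 FPKM in atbmi1abc and to 139 and 128 in atbmi1ab_strong, against 44.46 and 42.23 in WT. Of these 6, 4 were called higher in each of these mutants (limma, adjusted p under 0.05), while the root hair genes COBL9 (-1.79) and LRX1 (-2.50) were called lower in atbmi1abc and were at 0.01 and -0.13 (log2) in atbmi1ab_strong, not called. The 4 guard cell markers summed to between 1.62 and 2.90 FPKM in the double and triple mutant libraries and to between 30.03 and 41.40 in the other 6 libraries. The 6 endosperm markers summed to at most 3.12 FPKM in any library. In whole seedlings, a change in the share of a cell type and a change of RNA per cell cannot be told apart, and the part of these markers in the results that follow was not tested.

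Of the 10 genes, 9 averaged 1 FPKM or more across all libraries and entered the tests. NCED6 did not reach that level and is given by its levels. All tests were limma contrasts on log2(FPKM + 1) across the 19460 loci that reached it, with Benjamini-Hochberg adjustment over all of them, and a difference was called at an adjusted p under 0.05. Since 1 FPKM was added before taking logs, fold changes of low genes are understated. With 0.1 FPKM added in place of 1, the log2 differences from WT were 5.99 in atbmi1abc and 7.68 in atbmi1ab_strong for NCED9, -2.98 and -2.69 for GA3OX1 in the same genotypes, and -3.83 for DOG1 in atbmi1b, all of them called. The errors beside fold changes are standard errors. Where a library is left out, its genotype keeps 1 library, which is assumed to vary like the other groups. All 4 comparisons with WT share the same 2 WT libraries.

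In atbmi1abc 6 of the 9 tested genes were called against WT, 5 higher and 1 lower, and in atbmi1ab_strong the count was also 6, 5 higher and 1 lower. Among all loci tested, 74.0% were called in atbmi1abc, 36.3% higher and 37.7% lower, and 64.4% in atbmi1ab_strong, 31.8% higher and 32.6% lower. The share called in either direction among the 9 is thus near the background in both. The median log2 fold change of the 9 was 2.24 in atbmi1abc and 1.92 in atbmi1ab_strong, beside 0 for all loci in both. SOM and NCED9 were below 1 FPKM in every WT and single mutant library and passed the filter only through the double and triple mutants. In these mutants they could hardly be called lower, so the counts of higher genes and the medians are in part set by the filter. The single mutants had 4 of 9 called in atbmi1b, 2 higher and 2 lower, with a background of 45.4%, of which 21.3% higher and 24.1% lower. GA3OX2, 1 of the 2 higher, passed the filter mainly through atbmi1b, where it averaged 4.08 FPKM. In atbmi1a 2 of 9 were called, 1 higher and 1 lower, with a background of 35.3%, of which 17.0% higher and 18.4% lower. These shares are likewise near or below the background. The library that stood apart, atbmi1a replicate 1, was not the extreme one for every gene. NCED3 and CYP707A3 were at 23.5 and 40.8 FPKM in atbmi1a replicate 2, against 3.10 and 13.8 in replicate 1. All comparisons share 1 estimate of the spread per gene. Leaving out a library therefore also changes calls in genotypes to which it does not belong.

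**Figure D1:**
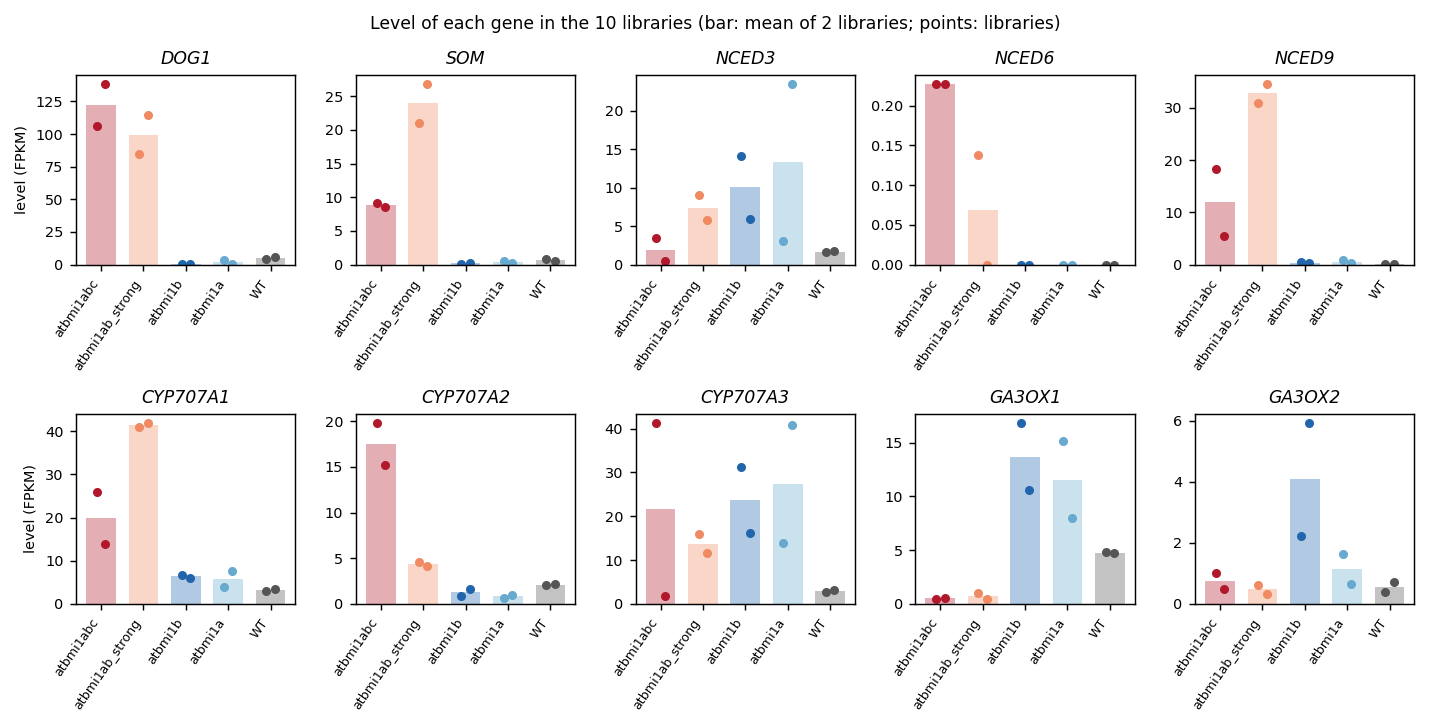
Levels of the 10 genes in FPKM on linear axes that start at 0 and differ in range, 1 panel per gene and 1 colour per genotype, with each point 1 library and the bar the mean of the 2 libraries. DOG1 lay at 84.5 FPKM or more in the 4 double and triple mutant libraries and at 6.13 or less in the other 6, while GA3OX1 lay at 0.995 or less in those 4 libraries and at 4.70 or more in the other 6.

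DOG1 (AT5G45830), the main determinant of seed dormancy depth in Arabidopsis, was high in the double and triple mutant seedlings and low elsewhere. Its level was 106 and 139 FPKM in atbmi1abc, 84.5 and 114 in atbmi1ab_strong, 0.482 and 0.123 in atbmi1b, and 3.58 and 0.365 in atbmi1a, against 4.11 and 6.13 in WT. Both WT libraries lay below all 4 libraries of the double and triple mutants and above all 4 libraries of the single mutants, with no overlap. DOG1 rose by 4.34 ± 0.50 (log2) in atbmi1abc (adjusted p = 9.5e-05) and by 4.04 ± 0.50 in atbmi1ab_strong (adjusted p = 0.000211). The difference between atbmi1abc and atbmi1ab_strong was 0.30 ± 0.50 (adjusted p = 0.629), and their libraries overlapped. In atbmi1b DOG1 fell by 2.23 (log2, SE 0.50, adjusted p = 0.00837). Leaving out WT replicate 2 ended that call (adjusted p = 0.0575), as did leaving out atbmi1b replicate 2 (adjusted p = 0.0549). In atbmi1a the difference was -1.27 ± 0.50 and was not called (adjusted p = 0.0838), but its libraries differed 9.80-fold. The higher of them, replicate 1, was the library with the higher sum of embryo storage markers. Without that replicate the DOG1 difference in atbmi1a was -2.14, which rests on replicate 2 alone, at 0.365 FPKM. The replicate left out was at 3.58 FPKM, near the lower WT library at 4.11. Which of the 2 atbmi1a libraries is the unusual one for DOG1 was not tested.

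The DOG1 gene lies on chromosome 5 at positions 18589418 to 18591506 on the minus strand of TAIR10.1, with 6 annotated transcripts of 2 to 3 exons. An antisense transcript is known at this locus in Arabidopsis, and the sources used here do not say whether fragments were counted by strand, so sense and antisense RNA cannot be told apart. Further loci of the dormancy list, on chromosome 4, were high in the same libraries. AT4G18650, which RefSeq annotates only as a transcription factor-like protein, was at 80.0 and 106 FPKM in atbmi1abc and at 99.7 and 131 in atbmi1ab_strong, against 1.18 and 1.19 in WT. AT4G18680, annotated as a delay of germination protein, was at 12.7 and 16.7 FPKM in atbmi1abc and at 17.6 and 25.6 in atbmi1ab_strong, and was listed at 0 in both WT libraries. At both loci the 4 double and triple mutant libraries lay above WT without overlap. AT4G18650 rose by 5.41 ± 0.57 (log2) in atbmi1abc (adjusted p = 5.72e-05) and by 5.72 ± 0.57 in atbmi1ab_strong (adjusted p = 6.22e-05), and is named after its values were seen. AT4G18660 and AT4G18690, also annotated as delay of germination proteins, did not reach a mean of 1 FPKM.

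SOM (AT1G03790), a single-exon gene on chromosome 1 at positions 954290 to 956144 on the plus strand, was highest in the double mutant. It was at 9.11 and 8.48 FPKM in atbmi1abc, 21.1 and 26.9 in atbmi1ab_strong, 0.132 and 0.234 in atbmi1b, and 0.483 and 0.194 in atbmi1a, against 0.784 and 0.580 in WT. The order of atbmi1ab_strong, atbmi1abc, WT and then the single mutants held without overlap, and the single mutants overlapped each other. SOM rose by 2.54 ± 0.17 (log2) in atbmi1abc (adjusted p = 4.38e-06) and by 3.88 ± 0.17 in atbmi1ab_strong (adjusted p = 8.43e-07). It was lower in atbmi1abc than in atbmi1ab_strong by a log2 difference of -1.34 ± 0.17 (adjusted p = 0.000441). In atbmi1b SOM fell by 0.51 (log2, SE 0.17, adjusted p = 0.0427). This last call was lost on leaving out any 1 of the 6 libraries of WT, atbmi1b and atbmi1abc, with adjusted p between 0.0595 and 0.175, and its libraries were all below 1 FPKM. In atbmi1a the difference was -0.33 ± 0.17 and was not called (adjusted p = 0.162). PIL5, a phytochrome-interacting factor known to activate SOM in imbibed Arabidopsis seeds, was at 2.34 and 1.53 FPKM in atbmi1abc and 1.41 and 1.94 in atbmi1ab_strong, against 19.3 and 17.1 in WT. It fell by 2.72 (log2, SE 0.30, adjusted p = 7.72e-05) in atbmi1abc and by 2.85 (SE 0.30, adjusted p = 8.81e-05) in atbmi1ab_strong, and is named here after its values were seen.

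The 250 bases before the annotated start of each gene were searched on both strands for 4 short motifs tied to seed and hormone regulation. These were the RY element CATGCA, bound by seed maturation factors of the B3 class, the ABA response core ACGTG, the G-box CACGTG, which holds that core on both strands, and the gibberellin response element TAACAAA. The gibberellin element was found upstream of 1 of the 10 genes, SOM, and upstream of 16.1% of the 27443 genes searched. The promoter of SOM is shown because it held 3 matches, which start 218, 181 and 133 bases before the gene. It runs over chr1:954040-954289 on the plus strand of TAIR10.1 (RefSeq), with the matches in capitals and the middle one on the opposite strand.
SOM: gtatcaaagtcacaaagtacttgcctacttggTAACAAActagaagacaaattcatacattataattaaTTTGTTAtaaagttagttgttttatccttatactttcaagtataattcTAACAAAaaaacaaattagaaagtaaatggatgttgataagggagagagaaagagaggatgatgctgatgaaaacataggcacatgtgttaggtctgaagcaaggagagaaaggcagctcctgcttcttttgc

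NCED9 (AT1G78390), a seed-expressed ABA synthesis gene, was the member furthest above WT in the double mutant. It was at 18.3 and 5.48 FPKM in atbmi1abc, 30.9 and 34.7 in atbmi1ab_strong, 0.478 and 0.303 in atbmi1b, and 0.898 and 0.271 in atbmi1a, against 0.0405 and 0.0817 in WT. All mutant libraries lay above both WT libraries, and those of atbmi1ab_strong lay above those of atbmi1abc. NCED9 rose by 4.99 ± 0.45 (log2) in atbmi1ab_strong (adjusted p = 3.32e-05) and by 3.40 ± 0.45 in atbmi1abc (adjusted p = 2e-04). The atbmi1abc libraries differed 3.35-fold, and the log2 difference from WT was 2.61 without replicate 1 and 4.19 without replicate 2. NCED9 was lower in atbmi1abc than in atbmi1ab_strong by -1.59 ± 0.45 (adjusted p = 0.0167). That call was lost without atbmi1ab_strong replicate 1 (adjusted p = 0.0582) or replicate 2 (adjusted p = 0.0753), and the difference was -2.38 without atbmi1abc replicate 1 and -0.80 without its replicate 2. The differences of 0.39 ± 0.45 in atbmi1b (adjusted p = 0.517) and 0.55 ± 0.45 in atbmi1a (adjusted p = 0.367) were not called.

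NCED3 (AT3G14440), the main drought-induced NCED gene of Arabidopsis, followed no such order. It was at 3.40 and 0.500 FPKM in atbmi1abc, 9.05 and 5.78 in atbmi1ab_strong, 14.05 and 5.99 in atbmi1b, and 3.10 and 23.5 in atbmi1a, against 1.57 and 1.80 in WT. Both libraries of atbmi1ab_strong, atbmi1b and atbmi1a lay above WT, whereas those of atbmi1abc lay on either side of it. None of its 4 comparisons with WT was called. The differences were -0.06 ± 0.84 in atbmi1abc (adjusted p = 0.951), 1.62 ± 0.84 in atbmi1ab_strong (adjusted p = 0.124), 1.93 ± 0.84 in atbmi1b (adjusted p = 0.0947) and 1.90 ± 0.84 in atbmi1a (adjusted p = 0.113). Its libraries differed 7.59-fold in atbmi1a and 6.79-fold in atbmi1abc. Without atbmi1a replicate 1 the atbmi1a difference was 3.19, which rests on the library at 23.5 FPKM. The replicate left out, at 3.10 FPKM, lay nearer to WT. The atbmi1b and atbmi1ab_strong differences stayed at 1.93 and 1.62 without either atbmi1a library. They were then called, but those libraries enter them only through the shared spread.

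NCED6 (AT3G24220), known from the endosperm of developing Arabidopsis seeds, was at 0.227 and 0.228 FPKM in atbmi1abc and at 0.138 and 0 in atbmi1ab_strong. It was listed at 0 in both libraries of atbmi1b, atbmi1a and WT. The 6 endosperm markers were low as well, with 0 to 3 of them per genotype at 0 in both libraries. The makeup of the summed level of the 3 NCED genes differed between genotypes. The sum averaged 14.1 ± 11.1 FPKM in atbmi1abc and 40.3 ± 0.240 in atbmi1ab_strong, against 1.75 ± 0.185 in WT (SD, n = 2 each). NCED9 made up 83.5% and 88.3% of it in atbmi1abc and 77.1% and 85.7% in atbmi1ab_strong, against 2.51% and 4.35% in WT. NCED3 made up 97.5% and 95.7% of the sum in WT.

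All 3 NCED genes have a single exon. NCED9 lies on chromosome 1 at 29490705 to 29492875 (minus strand), NCED3 on chromosome 3 at 4831286 to 4834015 (minus strand) and NCED6 on chromosome 3 at 8761419 to 8763303 (plus strand). NCED9 was the only one of them with a match to any of the 4 motifs, a G-box that starts 26 bases before the gene. A G-box was found upstream of 3 of the 10 genes and of 6.49% of all genes searched, and the ABA response core upstream of the same 3 genes and of 22.9% of all. The NCED9 promoter is shown with the G-box in capitals, over chr1:29492876-29493125 on the minus strand of TAIR10.1 (RefSeq), as the gene with the largest fold change of the 10 in the double mutant.
NCED9: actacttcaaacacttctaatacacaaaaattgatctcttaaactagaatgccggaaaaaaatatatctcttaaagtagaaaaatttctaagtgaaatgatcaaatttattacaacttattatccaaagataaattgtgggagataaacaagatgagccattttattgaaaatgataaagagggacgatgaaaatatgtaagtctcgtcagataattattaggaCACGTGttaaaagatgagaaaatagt

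**Figure D2:**
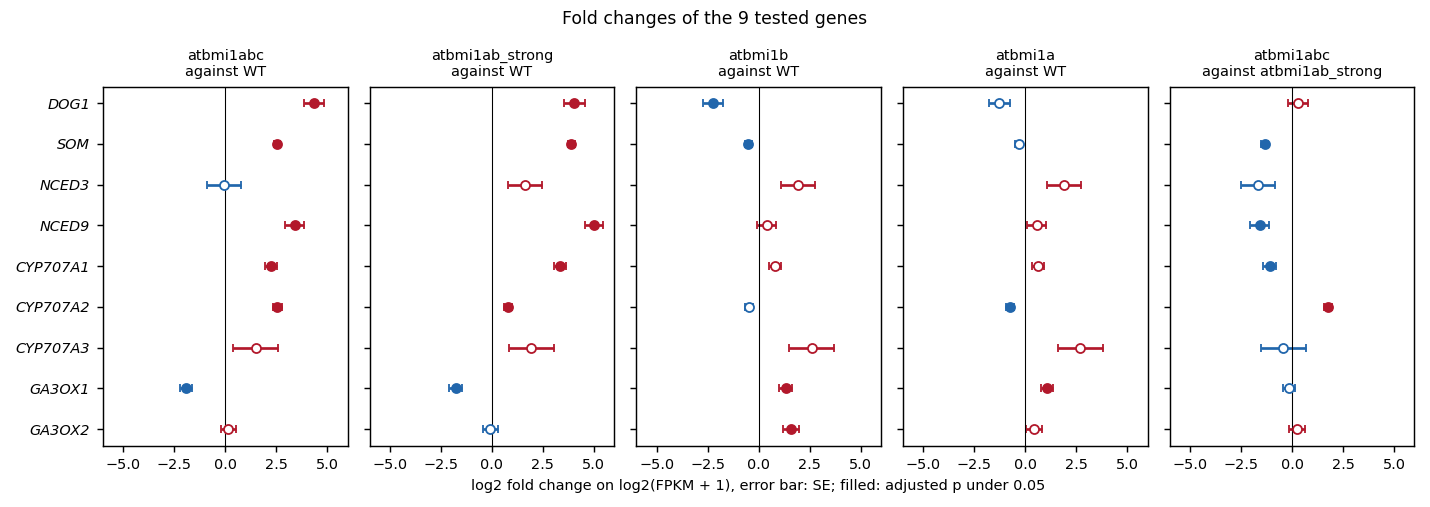
Log2 fold change on the log2(FPKM + 1) scale of the 9 tested genes in the 5 comparisons, with bars of 1 standard error, filled where called by limma at a Benjamini-Hochberg adjusted p under 0.05. DOG1, SOM, NCED9, CYP707A1 and CYP707A2 lie above 0 and GA3OX1 below 0 in both the triple and the double mutant against WT.

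Of the 3 breakdown genes, CYP707A1 and CYP707A2 were called higher than WT in both the double and the triple mutant, as NCED9 was, and CYP707A3 was called in no comparison with WT. CYP707A1 (AT4G19230), an ABA 8'-hydroxylase gene expressed in developing seeds, was at 26.0 and 13.8 FPKM in atbmi1abc, 41.1 and 41.9 in atbmi1ab_strong, 6.78 and 6.04 in atbmi1b, and 3.98 and 7.64 in atbmi1a, against 3.10 and 3.37 in WT. Every mutant library lay above both WT libraries, and the double mutant lay above the triple mutant. CYP707A1 rose by 2.24 ± 0.31 (log2) in atbmi1abc (adjusted p = 0.000293) and by 3.33 ± 0.31 in atbmi1ab_strong (adjusted p = 4.53e-05). Between atbmi1abc and atbmi1ab_strong the difference was -1.09 ± 0.31 (adjusted p = 0.019). It lost its call without atbmi1ab_strong replicate 1 (adjusted p = 0.0719) or replicate 2 (adjusted p = 0.0749), and was -0.65 without atbmi1abc replicate 2 (adjusted p = 0.108). In the single mutants the differences of 0.81 ± 0.31 in atbmi1b (adjusted p = 0.0691) and 0.63 ± 0.31 in atbmi1a (adjusted p = 0.153) were not called. The atbmi1b difference stayed at 0.81 without either atbmi1a library or either atbmi1abc library. It was then called, but those libraries enter it only through the shared spread. The atbmi1a difference was 1.03 without atbmi1a replicate 1, which leaves the library at 7.64 FPKM. The replicate left out, at 3.98 FPKM, lay nearer to WT.

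CYP707A2 (AT2G29090), the member of the family known to lower ABA in imbibed Arabidopsis seeds, had the opposite order of the double and triple mutants. It was at 19.8 and 15.2 FPKM in atbmi1abc, 4.61 and 4.12 in atbmi1ab_strong, 0.906 and 1.64 in atbmi1b, and 0.676 and 1.02 in atbmi1a, against 2.07 and 2.17 in WT. Both triple mutant libraries were above both double mutant libraries, those were above WT, and all 4 single mutant libraries were below WT. CYP707A2 rose by 2.56 ± 0.20 (log2) in atbmi1abc (adjusted p = 1.02e-05) and by 0.78 ± 0.20 in atbmi1ab_strong (adjusted p = 0.00952). The second of these was lost without atbmi1ab_strong replicate 1 (adjusted p = 0.055). Set against atbmi1ab_strong, atbmi1abc was higher by 1.78 ± 0.20 (adjusted p = 0.00024). In atbmi1a it fell by 0.76 (log2, SE 0.20, adjusted p = 0.0221), a call lost without WT replicate 1, WT replicate 2 or atbmi1a replicate 1, at adjusted p of 0.077, 0.0959 and 0.0846. In atbmi1b the difference of -0.47 ± 0.20 was not called (adjusted p = 0.088). It was -0.71 without atbmi1b replicate 2, which leaves the library at 0.906 FPKM. The replicate left out, at 1.64 FPKM, lay nearer to WT.

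CYP707A3 (AT5G45340), the family member best known from vegetative tissue and rehydration, was higher than WT in 7 of the 8 mutant libraries. It was at 41.3 and 1.79 FPKM in atbmi1abc, 15.9 and 11.5 in atbmi1ab_strong, 31.1 and 16.3 in atbmi1b, and 13.8 and 40.8 in atbmi1a, against 2.64 and 3.10 in WT. The exception was atbmi1abc replicate 2, below both WT libraries and 23.1-fold below its partner. No comparison with WT was called, with differences of 1.49 ± 1.1 in atbmi1abc (adjusted p = 0.25), 1.92 ± 1.1 in atbmi1ab_strong (adjusted p = 0.162), 2.61 ± 1.1 in atbmi1b (adjusted p = 0.0887) and 2.69 ± 1.1 in atbmi1a (adjusted p = 0.0936). The atbmi1abc difference was 3.45 without atbmi1abc replicate 2 (adjusted p = 0.00207) and -0.47 without its replicate 1 (adjusted p = 0.521). Leaving out either of these libraries kept the differences of atbmi1ab_strong, atbmi1b and atbmi1a at 1.92, 2.61 and 2.69. These were then called, although the atbmi1abc libraries enter them only through the spread shared by all genotypes. Calls gained in this way are not added support for a rise. Of the 7 heat and dehydration stress markers, 6 were called higher than WT in atbmi1abc, 7 in atbmi1ab_strong, 6 in atbmi1b and 7 in atbmi1a. They summed to 581 and 825 FPKM in atbmi1abc, 785 and 667 in atbmi1ab_strong, 747 and 850 in atbmi1b, and 1035 and 296 in atbmi1a, against 26.64 and 25.16 in WT. All 8 mutant libraries thus differed from both WT libraries in these markers, which touches every comparison with WT and not only those of NCED3 and CYP707A3. The part of the stress markers in the levels of these or any other genes was not tested.

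The summed level of the 3 CYP707A genes averaged 59.0 ± 39.8 FPKM in atbmi1abc, 59.6 ± 2.84 in atbmi1ab_strong, 31.4 ± 10.5 in atbmi1b and 34.0 ± 21.9 in atbmi1a, against 8.22 ± 0.588 in WT (SD, n = 2 each). The gene that contributed most was not the same in all genotypes. CYP707A1 made up 66.7% and 72.8% of the sum in atbmi1ab_strong, against 39.7% and 39.0% in WT. CYP707A3 made up 80.2% and 68.0% in atbmi1b and 74.8% and 82.5% in atbmi1a. In atbmi1abc the replicates had different leading genes. CYP707A3 made up 47.4% and 5.81% there, CYP707A1 29.9% and 44.8%, and CYP707A2 22.7% and 49.4%.

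CYP707A1 lies on chromosome 4 at 10521259 to 10523961 (plus strand, 7 exons), CYP707A2 on chromosome 2 at 12494826 to 12499723 (minus strand, 4 transcripts of 5 to 9 exons) and CYP707A3 on chromosome 5 at 18368532 to 18371021 (minus strand, 5 to 6 exons). CYP707A1 and CYP707A3 were the 2 of the 10 genes with an RY element, which was found upstream of 8.43% of all genes searched. In each, the RY element starts 14 bases before a G-box, in a 20-base stretch that differs between the genes by the single substitution T12G (CYP707A1 base first, positions counted from 1 at the 5' end of the stretch). The RY element starts 34 bases before CYP707A1 and 127 bases before CYP707A3. These promoters are shown because the genes share that stretch and differ in pattern across the genotypes, with the RY element, which lies on the opposite strand, and the G-box in capitals. They run over chr4:10521009-10521258 on the plus strand and chr5:18371022-18371271 on the minus strand of TAIR10.1 (RefSeq).
CYP707A1: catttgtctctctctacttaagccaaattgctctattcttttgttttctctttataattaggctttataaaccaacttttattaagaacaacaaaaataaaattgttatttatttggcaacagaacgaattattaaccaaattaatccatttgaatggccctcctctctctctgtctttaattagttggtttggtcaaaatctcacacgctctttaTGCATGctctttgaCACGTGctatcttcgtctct
CYP707A3: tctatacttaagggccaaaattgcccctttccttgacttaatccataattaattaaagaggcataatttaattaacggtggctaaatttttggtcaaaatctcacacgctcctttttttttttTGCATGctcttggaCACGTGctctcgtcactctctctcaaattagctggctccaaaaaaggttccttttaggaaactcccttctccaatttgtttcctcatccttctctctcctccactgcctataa

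**Figure D3:**
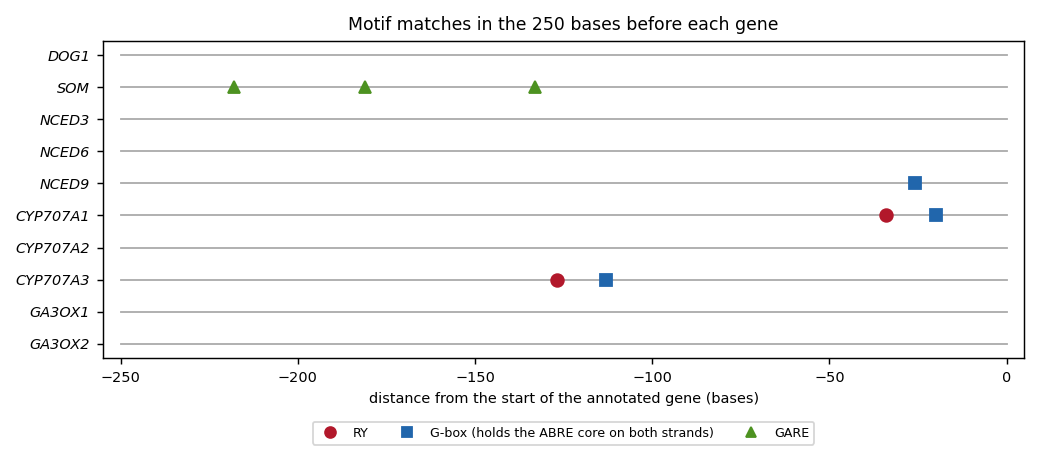
Positions of matches to the 4 motifs in the 250 bases before each of the 10 genes, drawn to scale in bases before the gene start. SOM holds the 3 gibberellin elements, NCED9, CYP707A1 and CYP707A3 hold the G-boxes, and 6 genes hold no match.

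GA3OX1 (AT1G15550), the main GA 3-oxidase gene of seedlings, was low in the libraries where DOG1 was high. It was at 0.460 and 0.577 FPKM in atbmi1abc, 0.995 and 0.413 in atbmi1ab_strong, 16.9 and 10.6 in atbmi1b, and 15.1 and 8.02 in atbmi1a, against 4.79 and 4.70 in WT. All 4 double and triple mutant libraries were below WT and all 4 single mutant libraries above it. GA3OX1 fell by 1.92 (log2, SE 0.31) in atbmi1abc (adjusted p = 0.000704) and by 1.78 (SE 0.31) in atbmi1ab_strong (adjusted p = 0.00148). It rose by 1.32 ± 0.31 in atbmi1b (adjusted p = 0.0104) and by 1.07 ± 0.31 in atbmi1a (adjusted p = 0.0323). Leaving out WT replicate 2 (adjusted p = 0.0527) or atbmi1b replicate 1 (adjusted p = 0.075) ended the atbmi1b call. The atbmi1a call was lost without WT replicate 1, WT replicate 2 or atbmi1a replicate 1, at adjusted p of 0.109, 0.121 and 0.131. Between atbmi1abc and atbmi1ab_strong the difference was -0.15 ± 0.31 (adjusted p = 0.713), and the libraries overlapped.

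GA3OX2 (AT1G80340), which acts beside GA3OX1 in germinating seeds and seedlings, was highest in atbmi1b and lay below 2 FPKM in the other genotypes. It was at 1.02 and 0.491 FPKM in atbmi1abc, 0.631 and 0.327 in atbmi1ab_strong, 2.22 and 5.94 in atbmi1b, and 1.64 and 0.654 in atbmi1a, against 0.402 and 0.729 in WT. Only the atbmi1b libraries stood clear of the other 8. GA3OX2 rose by 1.60 ± 0.38 (log2) in atbmi1b (adjusted p = 0.0111), a call lost without WT replicate 1 (adjusted p = 0.0654). The differences of 0.16 ± 0.38 in atbmi1abc (adjusted p = 0.73), -0.08 ± 0.38 in atbmi1ab_strong (adjusted p = 0.867) and 0.42 ± 0.38 in atbmi1a (adjusted p = 0.421) were not called. Summed, the 2 GA3OX genes averaged 1.27 ± 0.290 FPKM in atbmi1abc, 1.18 ± 0.627 in atbmi1ab_strong, 17.8 ± 1.80 in atbmi1b and 12.7 ± 5.72 in atbmi1a, against 5.31 ± 0.163 in WT (SD, n = 2 each). Both genes have 2 exons and lie on the minus strand of chromosome 1, GA3OX1 at 5344388 to 5346342 and GA3OX2 at 30200466 to 30202349.

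The triple and double mutants were also set against each other. Of the 9 tested genes 4 were called, 1 higher and 3 lower in atbmi1abc, with a background of 57.3% of all loci, of which 32.1% higher and 25.2% lower. CYP707A2 was the 1 gene higher in atbmi1abc, and SOM, NCED9 and CYP707A1 were the 3 lower ones. NCED3 differed by -1.68 ± 0.84 (adjusted p = 0.119). It stayed at -1.68 and was called without either atbmi1a library, but those libraries enter this comparison only through the shared spread. CYP707A3 differed by -0.42 ± 1.1 (adjusted p = 0.762). Its difference was -2.38 without atbmi1abc replicate 1 and had the opposite sign without atbmi1abc replicate 2. GA3OX2 differed by 0.24 ± 0.38 (adjusted p = 0.621). The median of the 9 was -0.42, beside 0.10 for all loci.

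**Figure D4:**
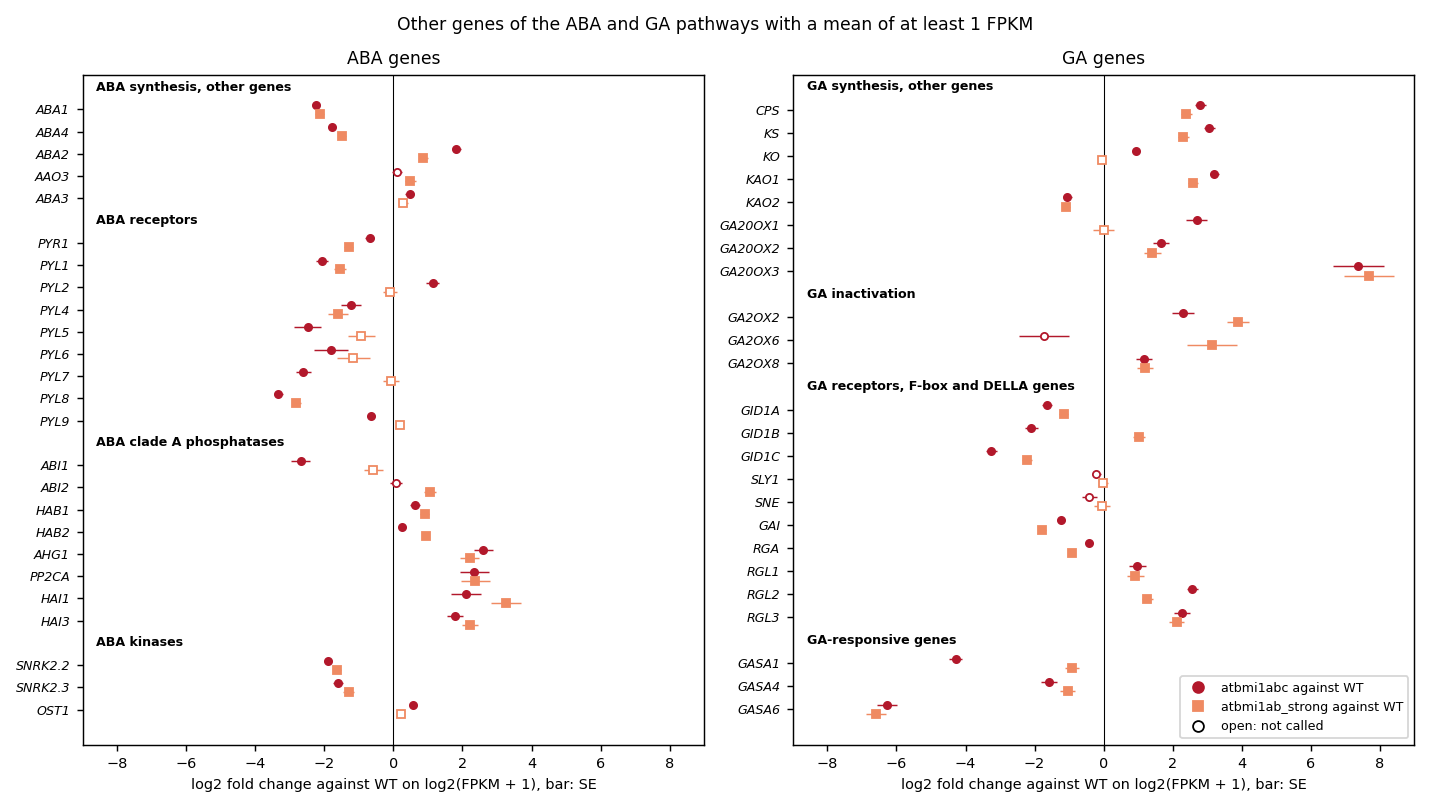
Log2 fold change on the log2(FPKM + 1) scale (bars 1 standard error) of other tested ABA and GA genes, by list, in atbmi1abc and atbmi1ab_strong against WT, filled where called by limma, with loci listed at 0 in both WT libraries left out. The points of the other GA synthesis genes lie mostly to the right of 0 and those of the GA-responsive genes to the left.

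The rest of the 2 hormone pathways was read from 11 lists with 90 genes. The counts that follow stand beside the same shares of all loci as above, 36.3% higher and 37.7% lower in atbmi1abc and 31.8% higher and 32.6% lower in atbmi1ab_strong. Some tested list genes, among them CPS, GA20OX3, AHG1, RDO5 and ABI3, were below 1 FPKM in both WT libraries. Such genes could hardly be called lower than WT. In their lists the counts of higher genes and the medians are therefore in part set by the filter. Of the 7 other ABA synthesis genes, which act before, at or after the NCED step, 5 were tested, of which 2 were higher and 2 lower in atbmi1abc, and 2 higher and 2 lower in atbmi1ab_strong. ABA1, the zeaxanthin epoxidase, fell by 2.25 (log2, SE 0.12) in atbmi1abc and by 2.14 in atbmi1ab_strong, and ABA4, needed for neoxanthin, fell by 1.78 and 1.48 in the same genotypes. ABA2, which makes abscisic aldehyde, rose by 1.82 in atbmi1abc and by 0.86 in atbmi1ab_strong. Among the 7 other genes of ABA breakdown, conjugation and transport 6 were tested, with 2 higher and 3 lower in atbmi1abc and 2 higher and 2 lower in atbmi1ab_strong. BGLU33, a beta-glucosidase gene, fell by 3.63 and 2.83 in these genotypes.

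In ABA perception, most tested receptor genes were lower in atbmi1abc, and most tested phosphatase genes were higher in both the double and the triple mutant. Of 14 receptor genes 10 were tested, with 2 higher and 8 lower in atbmi1abc (median -1.52, or -1.81 without PYL12, which was listed at 0 in WT) and 1 higher and 4 lower in atbmi1ab_strong (median -1.04, or -1.16 without PYL12). PYL8 had the smallest p among them and fell by 3.33 (log2) in atbmi1abc and by 2.81 in atbmi1ab_strong. Of the 9 clade A phosphatase genes, whose products hold ABA signalling off, 8 were tested, with 6 higher and 1 lower in atbmi1abc (median 1.21) and 7 higher in atbmi1ab_strong (median 1.64). AHG1, a seed phosphatase that DOG1 binds in Arabidopsis, was at 5.47 and 6.33 FPKM in atbmi1abc and 2.81 and 6.27 in atbmi1ab_strong, against 0.108 and 0.164 in WT. It rose by 2.60 (log2) in atbmi1abc and by 2.21 in atbmi1ab_strong. Both mutants lay above WT without overlap, and they overlapped each other. ABI1 was the 1 phosphatase gene lower in atbmi1abc, at -2.69. Of the 3 kinase genes, SNRK2.2 and SNRK2.3 were lower in both genotypes, SNRK2.2 by -1.90 in atbmi1abc and -1.63 in atbmi1ab_strong. OST1, the third, was called higher in atbmi1abc (0.58) and was not called in atbmi1ab_strong (0.21). The single mutants went the same way, with SNRK2.2 and SNRK2.3 called lower (-1.45 and -1.41 in atbmi1b, -1.40 and -0.82 in atbmi1a). OST1 was called higher in both (0.66 and 0.30).

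Other GA synthesis genes were mostly higher where GA3OX1 was lower. Of 12 such genes 9 were tested, with 8 higher and 1 lower in atbmi1abc (median 2.80, or 2.74 without GA3OX3) and 6 higher and 1 lower in atbmi1ab_strong (median 2.01, or 1.85 without it), beside a median of 0 over all loci. The medians without GA3OX3 still hold CPS and GA20OX3, both below 1 FPKM in WT, so leaving out GA3OX3 does not remove the part of the filter. CPS and KS, which make the diterpene precursor, rose by 2.80 and 3.06 (log2) in atbmi1abc and by 2.39 and 2.3 in atbmi1ab_strong. KAO1, an ent-kaurenoic acid oxidase, rose by 3.21 and 2.59 in the same genotypes. GA20OX3, a GA 20-oxidase gene named after its values were seen, was at 287 and 235 FPKM in atbmi1abc and at 288 and 360 in atbmi1ab_strong, against 0.561 and 0.566 in WT. It rose by 7.38 ± 0.73 (log2) in atbmi1abc (adjusted p = 3.95e-05) and by 7.69 ± 0.73 in atbmi1ab_strong (adjusted p = 4.73e-05). GA3OX3, a further GA 3-oxidase gene of the list, is also named after its values were seen. It was at 5.04 and 7.85 FPKM in atbmi1abc and at 3.28 and 2.80 in atbmi1ab_strong, and was listed at 0 in both WT libraries.

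Of 7 GA inactivation genes only 3 were tested, and 2 were higher in atbmi1abc and 3 in atbmi1ab_strong. GA2OX2, a GA 2-oxidase gene, rose by 2.31 (log2) in atbmi1abc and by 3.89 in atbmi1ab_strong. GA2OX6 was at 1.04 and 0.306 FPKM in atbmi1abc and at 44.6 and 48.6 in atbmi1ab_strong, against 4.39 and 4.43 in WT. It rose by 3.14 in atbmi1ab_strong, differed from WT by -1.73 in atbmi1abc without a call (adjusted p = 0.0592), and was lower in atbmi1abc than in atbmi1ab_strong by -4.87 (adjusted p = 0.000935). Among 10 receptor, F-box and DELLA genes, 3 were higher and 5 lower in atbmi1abc and 4 higher and 4 lower in atbmi1ab_strong. The receptor gene GID1C fell by 3.25 and 2.22 in these genotypes. The DELLA genes, all named after their values were seen, were split. GAI and RGA were called lower in both genotypes, and RGL1, RGL2 and RGL3 were called higher in both. RGL2 rose by 2.56 in atbmi1abc and by 1.26 in atbmi1ab_strong. All 3 tested genes of the 4 GA-responsive ones were lower in both, among them GASA6 at -6.28 in atbmi1abc and -6.59 in atbmi1ab_strong.

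In the single mutants the same lists were read in the same way. Of the 9 tested GA synthesis genes 3 were called in atbmi1b and 2 in atbmi1a, all of them lower, beside 24.1% and 18.4% of all loci called lower in these genotypes. GA20OX2 was at a log2 difference of -1.89 in atbmi1b and -1.02 in atbmi1a, both called, while GA3OX1 was higher. The clade A phosphatase genes had 5 of 8 higher in atbmi1b and 4 of 8 in atbmi1a, beside 21.3% and 17.0% of all loci. GAI, a DELLA repressor of GA responses, fell by 2.09 (log2) in atbmi1b and by 1.67 in atbmi1a, and GASA6 fell by 3.09 and 2.19. The other DELLA genes did not all follow GAI. RGA was called lower in both single mutants, whereas RGL2 was called higher, by 0.65 in atbmi1b and 0.86 in atbmi1a. RGL3 was called lower in atbmi1b only, and RGL1 was called in neither. Whether these effects differ between the single mutants and the double or triple mutant was not tested.

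Of the other 12 dormancy and germination regulators 10 were tested, with 6 higher and 3 lower in atbmi1abc (median 0.49, or 0.43 without AT4G18680) and 5 higher and 2 lower in atbmi1ab_strong (median 0.32, or 0.07 without it). RDO5, which promotes dormancy, rose by 5.09 (log2) in atbmi1abc and by 4.68 in atbmi1ab_strong. SPT, a germination regulator, rose by 2.69 and 1.85 in the same genotypes. Of these 10 genes only 1 was higher and 1 lower in atbmi1b, and limma called 0 in atbmi1a, where 0 had an unadjusted p under 0.05. The seed maturation regulators, which act upstream of storage genes, had 4 of 4 tested genes higher in atbmi1abc (median 5.31) and in atbmi1ab_strong (median 4.78), and 0 of 4 called by limma in either single mutant, where 0 had an unadjusted p under 0.05. Among them ABI3 rose by 6.68 in atbmi1abc and by 5.64 in atbmi1ab_strong.

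Across all 10 libraries, the loci whose pattern was most like that of each gene were found by the Pearson correlation of log2(FPKM + 1) with 15215 candidate loci of at least 5 FPKM on average. The 10 libraries fall into the 4 of the double and triple mutants and the other 6, so a high r mostly describes that division. DOG1 was most like AFH1 (r = 0.997) and PRXR1 (0.996), and SOM was most like AT1G50290 (0.994). NCED9 was closest to AT5G08360 (0.993) and WRKY23 (0.986), and CYP707A1 to AT2G12400 and EHB1 (0.987 each). CYP707A2 was closest to AT5G19090 (0.987), and GA3OX1 to HTH (0.984) and MDAR1 (0.983). NCED3, which did not follow the division, was closest to AT5G66070 (0.982) and WRKY33 (0.98), and CYP707A3 to RDUF1 (0.978) and CZF1 (0.973). GA3OX2 was closest to GATA10 (0.946).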

How the data were processed

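RNA-seq was deposited by the authors as 1 FPKM value per locus and library. Per the submitters' processing notes, FastQC, TopHat, Cufflinks and Cuffdiff were used with genome build TAIR10; for versions, annotation and strand setting, the sources used here give nothing. Depth is known only relatively. The commonest ratio to WT replicate 1, over loci above 0 and under 0.3 FPKM in both libraries, put it between 0.819 and 1.348 times. Only 26.7% to 36.3% of those loci lay near that ratio, so the estimate is rough. No 2 libraries were identical in 45 pairs. Reads of near-identical or overlapping genes may be split between loci, and an exact 0 can be a failed estimate.

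The planned fit was limma 3.58.1 (R 4.3.3, eBayes with trend) on log2(FPKM + 1), all 10 libraries in 1 fit without covariate, 5 residual degrees of freedom, the 19460 loci averaging 1 FPKM or more, Benjamini-Hochberg adjusted. In data simulated for atbmi1ab_strong against WT it called 32% of genes changed 1.5-fold, 78% at 2-fold and 96% at 4-fold and at 8-fold. The simulation drew normal noise on the log scale, and its changed genes lay above 5 FPKM in WT. It therefore does not cover genes low in WT, such as SOM, NCED9 and GA3OX2. The 10 genes and all lists were chosen with earlier results of these data known. Named beyond the 10 were up to 3 called genes per list and comparison with the smallest adjusted p, and the 2 loci most like each gene; exceptions are marked as named after their values were seen. Alternatives were other scalings, filters, a pseudocount of 0.1, a replicate block, the compared groups alone, organelle genes removed, the single mutants as reference and each library left out. Coordinates, promoters and names come from RefSeq TAIR10.1, which matched 26177 of 27086 loci. Protein sequences were not used here.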

Additional observations from a re-analysis of the deposited data

How the results depend on the processing

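Over all alternatives, 742 values of the 9 tested genes kept their direction and call, 31 lost a call, 32 gained one and 13 changed sign. Other scalings and the removal of organelle genes changed no gene's call. Genes called against WT changed beyond 1.5 times in atbmi1b, to 2 at a mean of at least 5 FPKM and to 8 with the compared groups alone. All loci called there were 51.3% and 48.5%. At 5 FPKM GA3OX2, with a mean of 1.405 FPKM, was no longer tested. In atbmi1a the count changed to 1 with the compared groups alone, where 15.7% of all loci were called. Leaving out 1 library moved the number of genes called in every comparison, and most in atbmi1b against WT. It also moved the shared spread and the share of all loci called, so those counts are not compared with the reported fit. With a replicate block the counts were 6, 6, 3 and 2 against WT (atbmi1abc, atbmi1ab_strong, atbmi1b, atbmi1a) and 4 between the double and triple mutants. All loci called with it were 73.4%, 63.8%, 44.5%, 33.6% and 56.7% in the same order. The SOM call in atbmi1b was lost with the block (adjusted p = 0.0614). Same-numbered libraries did not deviate together, with correlations between -0.226 and 0.119, so the numbers are not taken as pairs. The SOM call in atbmi1b was also lost with no filter (adjusted p = 0.0503) and at a mean of at least 5 FPKM (adjusted p = 0.0947). A pseudocount of 0.1 ended the GA3OX1 call in atbmi1a (adjusted p = 0.0684) and the NCED9 call between the double and triple mutants (adjusted p = 0.051), and made NCED9 called in atbmi1a (1.93, adjusted p = 0.0496). The compared groups alone ended these as well (adjusted p = 0.0869 and 0.0672) and the CYP707A2 call in atbmi1a (adjusted p = 0.0527), and added NCED3 (adjusted p = 0.00111) and CYP707A3 (adjusted p = 0.000282) in atbmi1ab_strong, CYP707A3 in atbmi1a (adjusted p = 0.0459), and NCED3, NCED9, CYP707A1 and CYP707A3 in atbmi1b (adjusted p of at most 0.0265). With the single mutants as reference, NCED3 (-1.98, adjusted p = 0.037) was also called in atbmi1abc and GA3OX2 (-1.09, adjusted p = 0.0201) in atbmi1ab_strong.

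Changes of sign touched differences that were not called in the reported fit. Quantile scaling gave NCED3 0.11 in atbmi1abc against WT and GA3OX1 0.40 in atbmi1abc against atbmi1ab_strong. The single mutants as reference make a different comparison from that with WT, and are part of the totals above. There atbmi1abc had CYP707A3 at -1.16 and GA3OX2 at -0.86 (adjusted p = 0.0464), and atbmi1ab_strong had NCED3 at -0.30 and CYP707A3 at -0.73. CYP707A3 averaged 27.3 FPKM in atbmi1a and 23.7 in atbmi1b, against 2.87 in WT. Leaving out 1 library gave ranges that cross 0. Against WT, GA3OX2 in atbmi1ab_strong ran between -0.23 without WT replicate 1 and 0.07 without WT replicate 2 or atbmi1ab_strong replicate 2. In atbmi1abc against WT, without atbmi1abc replicate 1 and without its replicate 2, CYP707A3 was -0.47 and 3.45 (the second called), GA3OX2 -0.06 and 0.37, and NCED3 -0.84 and 0.71. In atbmi1abc against atbmi1ab_strong, GA3OX1 ran between -0.39 and 0.10 without atbmi1ab_strong replicates 2 and 1, and CYP707A3 between -2.38 (called) and 1.54 without atbmi1abc replicates 1 and 2. The cause was not tested in these cases. With 2 libraries per genotype, NCED3 and CYP707A3 were limited by standard errors of 0.84 and 1.1, and genes below 1 FPKM by their low values.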
